A study of Rattus norvegicus with 24 samples.

Results

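The 10 genes described here belong to interleukin-6 family signalling or to its close neighbours in muscle. They are the ligands Il6 and Lif, the receptor chains Il6r, Il6st, Lifr and Osmr, the transcription factor Stat3, the inhibitors Socs3 and Socs2, and Il1rl1, which codes for the interleukin-33 receptor ST2. They were picked by gene symbol from a transcript table and summed per gene, and they make up 10 of its 15341 genes and 12 of its 20027 transcripts. The list was drawn up with trained against contralateral values of these muscles already known, so those values are given as a description, with counts of calls and no p-value for a member.

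The muscles were the tibialis anterior, a dorsiflexor of the lower hind limb, of 12 adult male Wistar rats. A pulse generator implanted in each rat drove daily resistance training of the left limb through its nerves, with the dorsiflexors working against the plantarflexors, for 2, 10, 20 or 30 days. The right muscle of the same rat was not stimulated and served as the contralateral control, so every control came from an animal that carried the implant and trained its other limb. Both muscles were taken 1 h after the last session, which leaves 3 trained and 3 contralateral muscles at each time point and 24 in all, and messenger RNA was sequenced after selection on the poly-A tail. The series text speaks of 4 animals for each time point, and the muscles of 3 were analysed here. The main comparison set the 3 trained muscles of a time point against all 12 contralateral muscles.

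Interleukin-6 family cytokines signal through Il6st (gp130), a chain shared by all of them, which pairs with Lifr or Osmr, or with itself once interleukin-6 has bound Il6r. The receptors activate Janus kinases, these phosphorylate Stat3, and Stat3 switches on genes that include Socs3, whose product binds gp130 and shuts the signal down, while Socs2 acts mainly on the growth hormone receptor. Contracting muscle is known to release interleukin-6. Il1rl1 lies outside the family: it exists as a membrane receptor for interleukin-33, carried by mast cells, regulatory T cells and type 2 innate lymphoid cells among others, and as a shorter secreted form that captures interleukin-33.

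In the Rnor_6.0 assembly used for the table, Il6 was annotated at chr4:3043231-3047808 and Lif at chr14:84482674-84500643. Among the receptor chains, Il6r was at chr2:189205701-189254629 and Il6st at chr2:44289393-44314945, while Lifr at chr2:56426367-56489416 and Osmr at chr2:56110777-56151532 lay close to each other. Stat3 was at chr10:88790408-88842234, Socs3 at chr10:106975178-106976041 and Socs2 at chr7:36495480-36499785. All 10 genes were annotated as protein coding, 8 of them with 1 transcript each. Osmr had 2 transcripts with the same bounds and identical values. Il1rl1 had 2 that differed. Il1rl1-201 spanned chr9:47134034-47182171 and Il1rl1-202 spanned chr9:47165342-47174711, on the same strand. The second thus started 31308 bases downstream of the first and ended 7460 bases before it.

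The promoters of 8 members were found in a RefSeq table for the GRCr8 assembly, and Socs2 and Lif were not. The 250 bases before the start were searched on both strands for TTCNNNGAA (a STAT site), TGANTCA (AP-1), TGACGTCA (a cyclic AMP response element, CRE) and CACGTG (E-box), and no 2 matches overlapped. The sequences of 4 members are shown, 5′ to 3′ on the gene's strand, with the matched letters in capitals: Il6 and Osmr because they held a match, and Socs3 and Il1rl1 because their values moved most.
Il6, chr4:5894576-5894825, minus strand: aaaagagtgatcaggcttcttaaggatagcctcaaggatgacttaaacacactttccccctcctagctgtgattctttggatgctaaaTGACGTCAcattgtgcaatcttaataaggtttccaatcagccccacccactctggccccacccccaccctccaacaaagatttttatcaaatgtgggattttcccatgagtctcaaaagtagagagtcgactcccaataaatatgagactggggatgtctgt
Osmr, chr2:57688562-57688811, minus strand: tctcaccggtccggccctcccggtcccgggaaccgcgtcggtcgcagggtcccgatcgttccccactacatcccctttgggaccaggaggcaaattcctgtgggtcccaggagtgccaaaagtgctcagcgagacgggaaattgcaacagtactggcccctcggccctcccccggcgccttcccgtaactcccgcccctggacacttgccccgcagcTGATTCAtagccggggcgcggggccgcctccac
Socs3, chr10:103694769-103695018, minus strand: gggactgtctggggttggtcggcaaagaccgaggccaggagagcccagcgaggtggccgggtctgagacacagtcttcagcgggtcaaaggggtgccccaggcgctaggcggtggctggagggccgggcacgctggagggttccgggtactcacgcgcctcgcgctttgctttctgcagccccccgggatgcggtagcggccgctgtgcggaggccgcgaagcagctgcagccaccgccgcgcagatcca
Il1rl1, chr9:50203388-50203637, plus strand: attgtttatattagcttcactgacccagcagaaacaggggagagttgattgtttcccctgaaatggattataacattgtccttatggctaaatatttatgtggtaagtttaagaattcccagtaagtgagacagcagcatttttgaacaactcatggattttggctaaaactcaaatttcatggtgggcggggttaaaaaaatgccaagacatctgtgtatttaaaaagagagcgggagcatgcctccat

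The Il6 promoter held the CRE letters starting at -162 from the start, and the Osmr promoter held AP-1 letters starting at -33. The Il6r promoter, not printed, held the E-box letters starting at -162. The STAT letters were in the window of none of the 8, where 7.67% of the 33469 promoters in the table held them. AP-1 letters were in 6.34% of all promoters, E-box letters in 5.59% and CRE letters in 1.59%. A match in these windows is a run of letters and no more, and its absence says nothing about the factor.

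Values below are scaled values: the transcripts-per-million values of the table, which are per length of transcript, divided by a factor for each library and summed over the transcripts of a gene. Because they are per length, levels may be compared between genes. The deposited values step in whole reads, and for the 10 members all 240 values came out whole within a tolerance of 0.05 read, so reads are given as well. A single read on a transcript of 1 kb was worth between 0.0981 and 0.172 in the deposited values, and intervals on reads cover counting error only. Muscle fibre markers were abundant, with a summed scaled value of 74259 to 85970 in the contralateral muscles over the 6 of 7 markers in the table. Their sum was 57273 to 94010 over all trained muscles. Mitochondrially encoded transcripts took 28.1% to 44.2% of the deposited total in the contralateral muscles, with contralateral 30 days replicate 1 highest, and 23.7% to 44.6% in the trained muscles, with the 3 trained 30 days muscles at 40.4% or above. On the values as deposited, without library factors, the median difference over all genes at 30 days was -0.18 on the log2 scale, and changes at that time are given relative to the scaled median. The split of called genes moved with it: 53.4%, 53.9% and 54.1% of them were higher at 2, 10 and 30 days on scaled values, and 74.5%, 75.4% and 20.0% on deposited values.

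In the contralateral muscles the members spanned a wide range of levels. Il6st had a mean scaled value of 17.1 ± 3.14 (SD, n = 12) and Stat3 one of 13.8 ± 1.26, and their ranges of 10.6 to 20.8 and 11.6 to 15.9 overlapped. Socs2 followed at 4.80 ± 1.59, Il6r at 3.54 ± 1.30 and Lifr at 2.20 ± 0.90, each overlapping its neighbour. Osmr at 1.14 ± 0.28 and Socs3 at 1.00 ± 0.93 overlapped as well. Il1rl1, at 0.0988 ± 0.0914 with a highest value of 0.290, overlapped with Socs3 only at its low end, where the lowest Socs3 value was 0.207. Lif at 0.0537 ± 0.0733 and Il6 at 0.0452 ± 0.0731 were lowest, and neither differed from Il1rl1 or from the other beyond its spread.

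**Figure D1:**
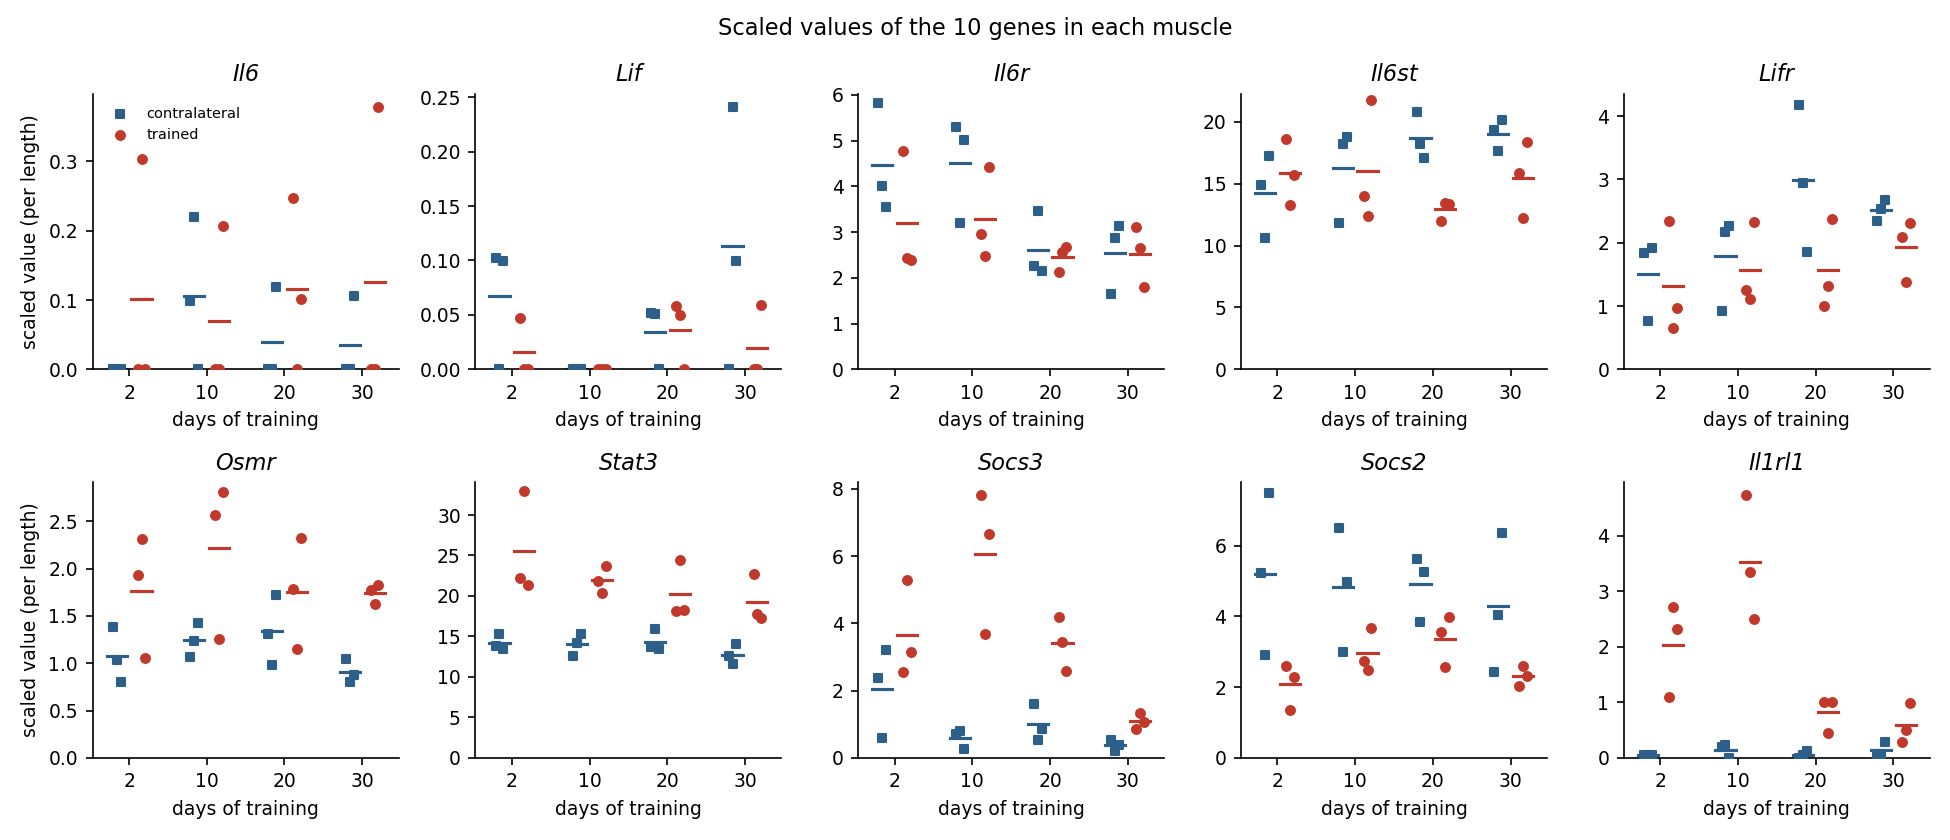
Scaled value (per length, linear axis from 0, a different range in each panel) of the 10 genes in each of the 24 muscles by days of training. Squares are contralateral and circles trained muscles, and each bar is the mean of 3. All 12 trained Stat3 points lie above all 12 contralateral points, whereas the trained Il6r, Il6st and Lifr points overlap the range of the 12 contralateral points at every time.

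The ligands were barely detected. Il6 had 5 reads over the 12 contralateral muscles (exact Poisson 95% interval 1.62 to 11.7), with 0 to 2 reads in each and 8 muscles at 0. In the trained muscles Il6 had 0, 3 and 0 reads at 2 days, 0, 0 and 2 at 10 days, 2, 0 and 1 at 20 days, and 0, 0 and 3 at 30 days, or 11 in all. Neither limb thus exceeded 3 reads in any muscle, the limit that a count of 0 allows, which for Il6 was a scaled value of 0.294 to 0.514. Lif, the leukaemia inhibitory factor, had 11 reads over the 12 contralateral muscles (interval 5.49 to 19.7) and 4 over the 12 trained muscles, with at most 3 in any muscle. At 10 days Lif had 0 reads in all 3 trained muscles and also in all 3 contralateral muscles. A difference between the limbs in either ligand was not detectable at this depth, and neither gene passed the filter of a scaled value of at least 1 in at least 3 muscles.

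The other 8 genes passed that filter and were fitted with limma together with all 11234 genes that passed. Differences are given on the log2(scaled value + 1) scale, trained minus contralateral, which understates the change of genes at low values. At 2 days, 3 of the 8 were called higher at an adjusted p under 0.05 (Stat3, Socs3 and Il1rl1), where 15.4% of all tested genes were called higher, and Socs2 was called lower, where 13.4% were, or 28.8% in either direction. At 10 days, 4 were called higher (Stat3, Socs3, Il1rl1 and Osmr) and 0 lower, against 15.6% and 13.3% of all genes, or 28.9% in either direction. At 20 days, 3 were called higher (Stat3, Socs3 and Il1rl1) and 0 lower, against 11.7% and 9.57%. At 30 days, 2 were called higher (Stat3 and Il1rl1) and Socs2 lower, against 11.1% and 9.4%. These counts describe genes that were listed with this contrast known, and nothing is drawn from setting them beside the shares for all genes. Il1rl1 passed the filter through its trained muscles alone, since its highest contralateral value was below 1. Muscles of 2, 10 and 20 days reached 1, so that a difference at those times was built in. No trained muscle of 30 days did, with a highest value of 0.979.

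**Figure D2:**
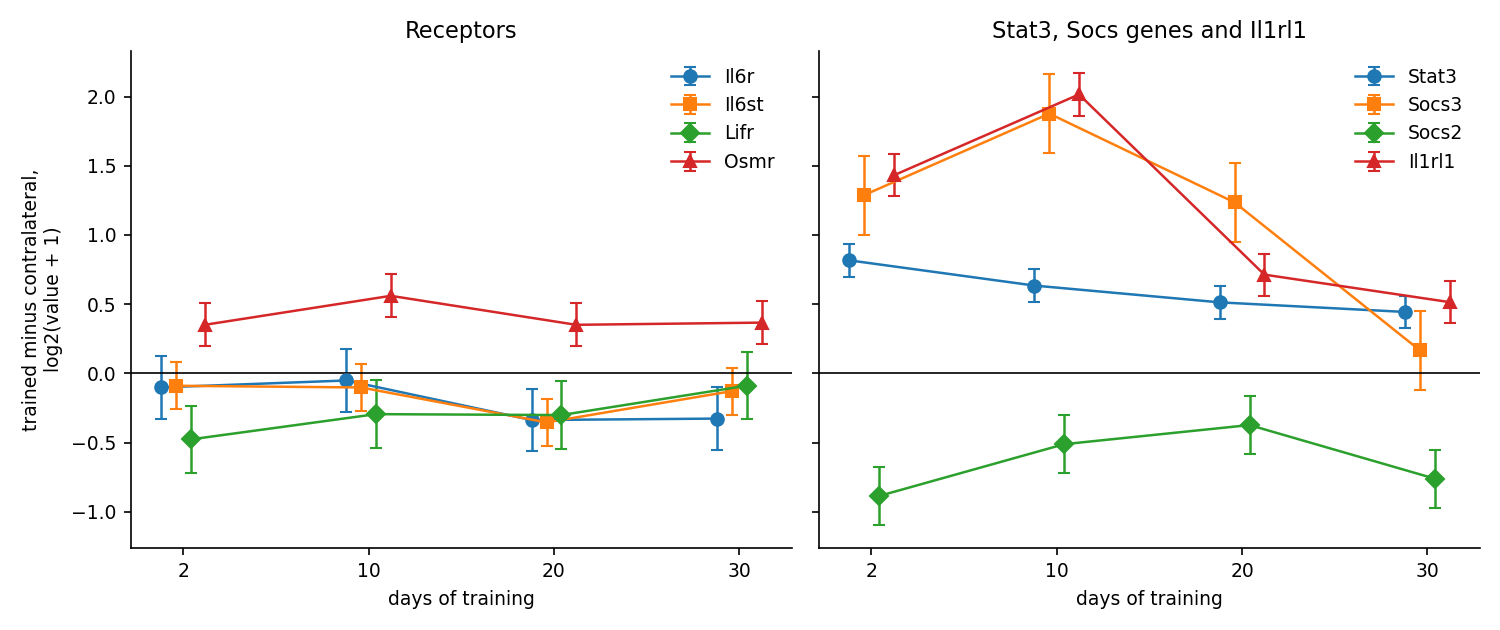
Difference between trained and contralateral muscles, log2(scaled value + 1), with its standard error, at 2, 10, 20 and 30 days for the 8 genes that passed the filter (3 trained against 12 contralateral muscles). Il1rl1 and Socs3 stand highest at 10 days, at 2.02 and 1.88, and Stat3 is highest at 2 days, at 0.82, while Socs2 lies below 0 at all 4 times.

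Of the 4 receptor chains, Il6st, Il6r and Lifr were called in neither direction at any time point. Il6st, the shared signalling chain, had scaled values of 18.6, 13.2 and 15.7 in the trained muscles at 2 days, 13.97, 12.4 and 21.7 at 10 days, 11.99, 13.4 and 13.4 at 20 days, and 15.8, 12.2 and 18.4 at 30 days, against 10.6 to 20.8 with a median of 17.9 in the 12 contralateral muscles. Of these, 1 trained muscle at 10 days lay above all contralateral muscles and the others lay within their range. The differences were -0.09, -0.10, -0.35 and -0.13 (SE 0.17). Set against the contralateral muscles of 20 days alone, at 17.1 to 20.8, the 3 trained muscles of 20 days all lay below. How many of all genes did so was not counted, so nothing is drawn from this gap. With the animal as a block the 20 days difference was -0.50 and was called lower, and Il6st was below the animal's own contralateral muscle in all 3 animals at 20 and at 30 days and in 8 of 12 overall.

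Il6r, the chain that binds interleukin-6 itself, had trained values of 4.79, 2.44 and 2.38 at 2 days, 2.96, 2.48 and 4.43 at 10 days, 2.13, 2.57 and 2.68 at 20 days, and 3.12, 2.64 and 1.81 at 30 days. All of them lay within the contralateral range of 1.64 to 5.82 (median 3.33). The differences against all 12 contralateral muscles were -0.10, -0.05, -0.34 and -0.33 (SE 0.23). Il6r was lower than in the animal's own contralateral muscle in 10 of 12 animals, and the order over time changed when each group was set against the contralateral muscles of its own time point, which gave -0.40, -0.36, -0.05 and -0.00 (SE 0.24). Lifr, the chain for leukaemia inhibitory factor, ranged from 0.649 to 2.37 in the trained muscles and from 0.764 to 4.18 in the contralateral ones, and 1 trained muscle at 2 days was below all of these. At 30 days the highest trained muscle, at 2.30, was below the lowest contralateral muscle of that time, at 2.35. The share of all genes with such a gap was not counted, so nothing is drawn from it. The differences of Lifr were -0.48, -0.29, -0.30 and -0.09 (SE 0.24). Without trained 2 days replicate 1 the Lifr difference at 2 days was -0.78 and was called lower.

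Osmr, the oncostatin M receptor chain, was the receptor that stood above the contralateral muscles. The trained values were 1.93, 2.31 and 1.05 at 2 days, 2.57, 1.26 and 2.81 at 10 days, 1.79, 1.15 and 2.32 at 20 days, and 1.77, 1.62 and 1.83 at 30 days, against 0.806 to 1.73 with a median of 1.05 in the 12 contralateral muscles. At every time point 2 of the 3 trained muscles exceeded all 12 contralateral muscles and the third fell within their range, and in all 12 animals the trained muscle was above its own contralateral muscle. The differences were 0.35, 0.56, 0.35 and 0.37 (SE 0.15), and only that at 10 days was called. The mean at 10 days was 1.94 times the contralateral mean, from 173 reads in 3 trained and 331 in 12 contralateral muscles.

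The Osmr call turned on few muscles. Without trained 10 days replicate 1 or replicate 3 the difference was 0.47 or 0.42 and was not called. Against the contralateral muscles of 10 days alone it was 0.49 and was not called. Conversely, Osmr was called higher at 2 days without replicate 3, at 0.55, and at 20 days without replicate 2, at 0.52, and with the animal as a block at 30 days, at 0.52. Differences in Osmr between time points were not tested.

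Stat3, the transcription factor of the pathway, was higher in every trained muscle than in every contralateral muscle. The share of all genes that separated all 12 trained from all 12 contralateral muscles was not counted. Its trained values were 22.2, 33.0 and 21.3 at 2 days, 21.8, 20.4 and 23.7 at 10 days, 18.2, 24.4 and 18.3 at 20 days, and 22.7, 17.8 and 17.3 at 30 days, against 11.6 to 15.9 with a median of 13.8 in the 12 contralateral muscles. The 3 trained muscles of each time point thus all lay above the 12 contralateral ones, as they did for 8.55%, 9.99%, 8.22% and 7.47% of all tested genes at 2, 10, 20 and 30 days. The means were 1.85, 1.59, 1.47 and 1.39 times the contralateral mean, and the differences were 0.82, 0.63, 0.51 and 0.44 (SE 0.12). Stat3 is a well covered member, with 579 to 1380 reads in each trained muscle and 288 to 620 in each contralateral one.

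Stat3 was called higher at all 4 time points, and single muscles carried the later calls. At 2 days the value without trained replicate 2, the highest muscle, was 0.62 and still called. At 20 days the difference was 0.38 without replicate 2 and at 30 days 0.33 without replicate 1, and neither was called. At 30 days it was 0.23 on the values as deposited, whose median over all genes was shifted by -0.18, and it was not called there. Against the animal's own contralateral muscle Stat3 was higher in 12 of 12 animals.

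Socs3, the feedback inhibitor that acts on gp130, was highest at 10 days. The trained values were 2.56, 5.28 and 3.14 at 2 days, 7.82, 3.67 and 6.66 at 10 days, 4.19, 3.46 and 2.59 at 20 days, and 0.867, 1.32 and 1.07 at 30 days, against 0.207 to 3.21 with a median of 0.646 in the 12 contralateral muscles. Only the 10 days muscles all lay above the contralateral ones, as they did for 9.99% of all tested genes. At 2 days 1 of 3 lay above them in Socs3, at 20 days 2 of 3 and at 30 days 0 of 3. The means were 3.65, 6.03, 3.40 and 1.08 times the contralateral mean, the differences were 1.29, 1.88, 1.23 and 0.17 (SE 0.29), and Socs3 was called higher at 2, 10 and 20 days.

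The contralateral muscles were unlike each other in Socs3. They held 2.38, 0.578 and 3.21 at 2 days, 0.713, 0.799 and 0.265 at 10 days, 1.59, 0.526 and 0.866 at 20 days, and 0.524, 0.207 and 0.383 at 30 days. Replicates 1 and 3 at 2 days were the highest of the 12, and the trained muscles of the same rats held 2.56 and 3.14. In these rats the limbs differed little. The 2 days difference within animals thus came mainly from the remaining rat (0.578 contralateral and 5.28 trained). With the animal as a block the 2 days difference was 0.68 (SE 0.33) and was not called, nor was it against the contralateral muscles of 2 days alone. Leaving both high contralateral muscles out of the 12 gave 1.49, 2.08, 1.44 and 0.37 (SE 0.20). At 10 and 20 days the blocked differences were 2.11 and 1.16, and at 30 days 0.61, with the trained muscle above its own contralateral one in all 3 animals at each of these times. Socs3 rested on few reads, 1 to 25 in each contralateral and 6 to 61 in each trained muscle.

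**Figure D3:**
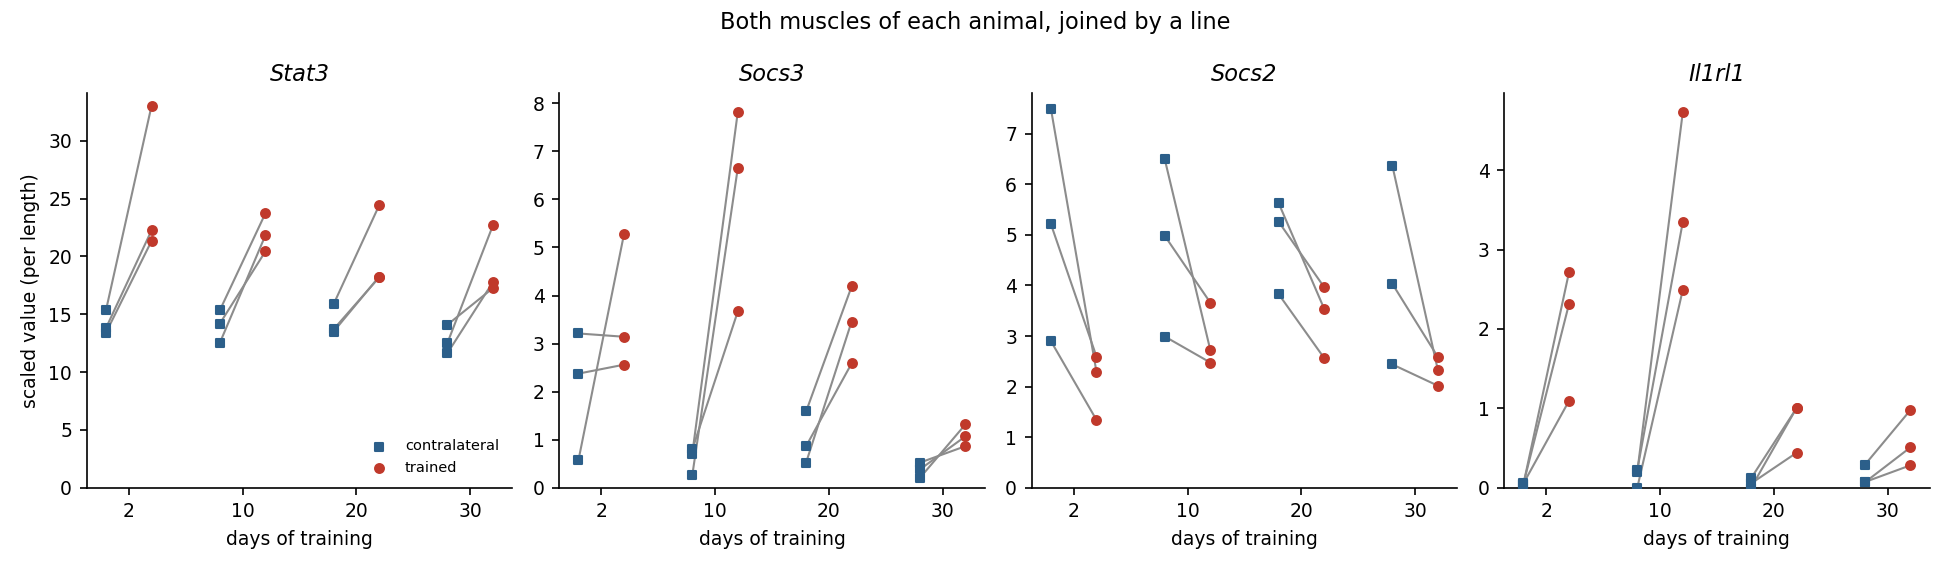
Scaled value (per length, linear axis from 0) of Stat3, Socs3, Socs2 and Il1rl1 in the contralateral muscle (square) and the trained muscle (circle) of each rat, joined by a line, by days of training. The Stat3 and Il1rl1 lines go up and the Socs2 lines go down in all 12 rats, while 2 of the 3 Socs3 lines at 2 days are nearly level, from 2.38 to 2.56 and from 3.21 to 3.14.

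Socs2, an inhibitor of growth hormone signalling, was the member that stood lower in the trained muscles. Its trained values were 2.59, 1.34 and 2.29 at 2 days, 2.73, 2.48 and 3.66 at 10 days, 3.54, 2.57 and 3.97 at 20 days, and 2.02, 2.58 and 2.32 at 30 days, against 2.44 to 7.49 with a median of 5.10 in the 12 contralateral muscles. At 2 and at 30 days 2 of 3 trained muscles lay below all contralateral muscles, and at 10 and 20 days all 3 lay within their range. No time point had all 3 trained muscles below all 12 contralateral ones, as 6.17%, 8.11%, 4.78% and 6.06% of all tested genes did. In all 12 animals the trained muscle was below the contralateral muscle of the same animal. The differences were -0.89, -0.51, -0.37 and -0.76 (SE 0.21), the means were 0.432, 0.615, 0.700 and 0.481 of the contralateral mean, and Socs2 was called lower at 2 and 30 days.

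These calls also depended on which muscles entered. At 2 days Socs2 was not called without trained replicate 2, at -0.70. At 30 days it was not called without trained replicate 1, at -0.70, nor with the animal as a block or against its own time point, at -0.61 in both. At 10 days it was called lower without contralateral 30 days replicate 1, at -0.58, without contralateral 2 days replicate 2 or contralateral 10 days replicate 2, at -0.56 in both, and with the animal as a random effect, at -0.51.

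Il1rl1, the interleukin-33 receptor gene, was near the limit of detection in the contralateral muscles and well above it in most trained ones. The contralateral muscles held 22 reads in all (interval 13.8 to 33.3), between 0 and 6 each, for scaled values of 0 to 0.290 with a median of 0.0622. The trained muscles held 26, 64 and 53 reads at 2 days, 108, 72 and 59 at 10 days, 19, 10 and 23 at 20 days, and 5, 10 and 16 at 30 days. Their scaled values were 1.09, 2.71 and 2.31, then 4.73, 3.35 and 2.49, then 1.01, 0.442 and 1.00, and last 0.283, 0.509 and 0.979.

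All trained muscles exceeded all 12 contralateral muscles at 2, 10 and 20 days, and 2 of 3 did at 30 days. All 3 trained muscles did so for 8.55%, 9.99% and 8.22% of all tested genes at 2, 10 and 20 days. The means were 20.6, 35.6, 8.27 and 5.97 times the contralateral mean, and the differences were 1.43, 2.02, 0.71 and 0.51 (SE 0.15). Relative to 10 days, the summed reads of the 3 muscles went from 239 to 52 at 20 days and 31 at 30 days. The call at 30 days was lost without trained replicate 2 (0.54) or replicate 3 (0.35), with the animal as a block and against its own time point (0.46 in both). With a pseudocount of 0.1 in place of 1 the differences were 3.46, 4.27, 2.26 and 1.79.

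The reads of Il1rl1 lay mostly on Il1rl1-202, the transcript with the shorter span on the genome. The transcript itself was not the shorter one. The lengths fitted when reads were recovered were 2585 bases for Il1rl1-202 and 2065 for Il1rl1-201. Il1rl1-202, which starts 31308 bases inside Il1rl1-201, carried 80.8% to 84.0% of the scaled value of the gene in the 3 trained muscles at 2 days, 88.2% to 96.4% at 10 days and 71.4% to 84.0% at 20 days. At 30 days its share was 25.8%, 81.1% and 17.9%, from 5, 10 and 16 reads of the gene. In the contralateral muscles Il1rl1-202 had about 4.83 of the 22 reads and Il1rl1-201 about 17.2, fractions that come from the authors' division of reads between overlapping transcripts. Reads that fall on exons common to both cannot be told apart, and which protein each transcript encodes was not examined.

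Fitted by transcript, Il1rl1-202 differed by 1.36, 2.02, 0.65 and 0.25 (SE 0.13) at 2, 10, 20 and 30 days and was called higher at 2, 10 and 20 days. With a highest contralateral value of 0.121 it passed the filter through trained muscles alone, as the gene did, so these calls are no support. Il1rl1-201 did not pass the filter. It reached no more than 0.804 in any trained muscle, with differences of 0.32, 0.30, 0.17 and 0.31 for which no test was made, against a highest contralateral value of 0.223. At 30 days trained replicate 3 held about 12.6 reads of Il1rl1-201, the most of any muscle.

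**Figure D4:**
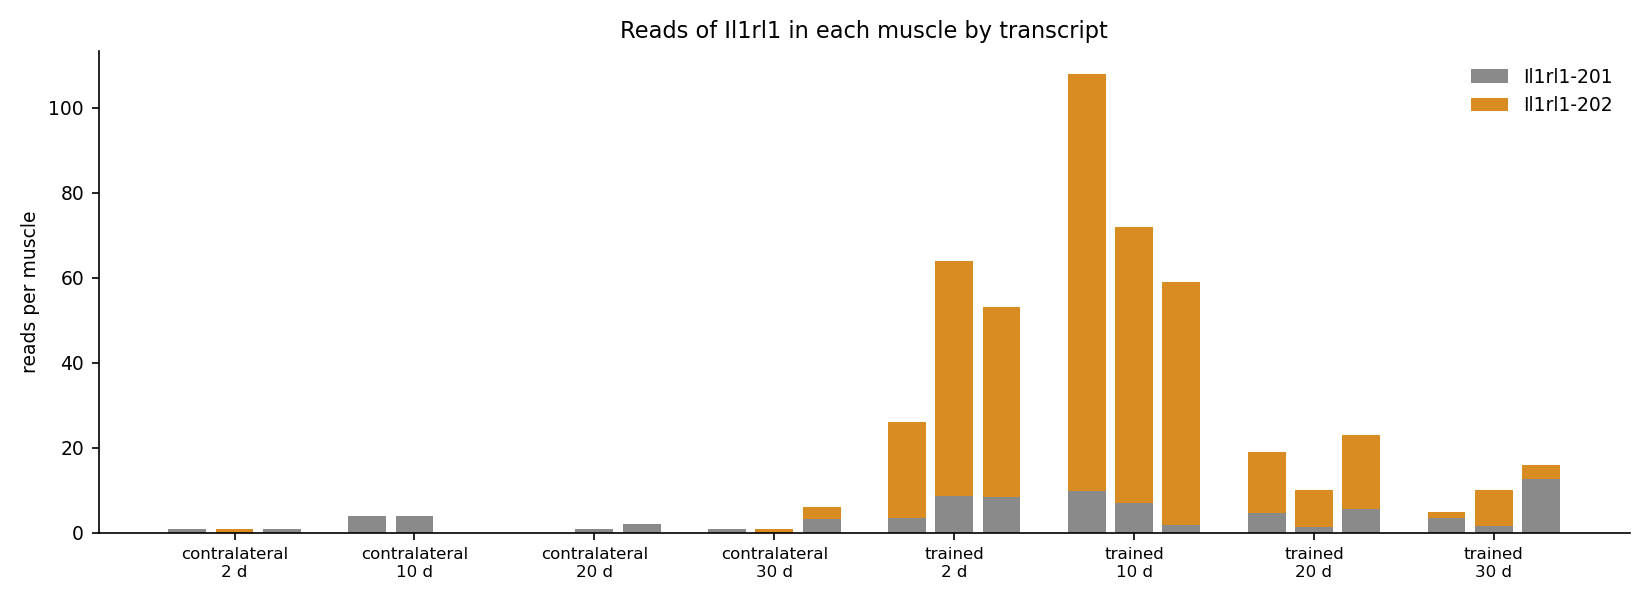
Reads of Il1rl1 in each of the 24 muscles (linear axis from 0), stacked by annotated transcript, as recovered from the deposited values, with replicates 1 to 3 from left to right in each group. Il1rl1-202 makes up most of the bars of trained muscles at 2, 10 and 20 days, with totals of 10 to 108 reads, and contralateral muscles hold 0 to 6 reads.

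Marker genes of some other cell types also differed between the limbs. In whole muscle, more cells of a type and more RNA per cell cannot be told apart. The 7 macrophage markers summed to 6.87 to 17.9 in the contralateral muscles and to 21.1 to 47.9, 22.8 to 55.4, 31.2 to 39.1 and 28.3 to 40.8 in the trained muscles at 2, 10, 20 and 30 days, and 5, 6, 7 and 7 of them were called higher. Of the 6 fibro-adipogenic markers 3, 5, 5 and 5 were called higher, with sums of 68.7 to 197 in contralateral muscles and 177 to 552 over all trained muscles. Beside these counts, 15.4%, 15.6%, 11.7% and 11.1% of all tested genes were called higher. The part of macrophages and fibro-adipogenic cells in the Stat3, Socs3, Osmr and Il1rl1 differences was not tested.

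Mast cells are a main carrier of Il1rl1. The 6 mast cell markers in the table summed to 1.10 to 2.99 in the contralateral muscles and to 1.63 to 2.34 in the trained muscles at 2 days. They summed to 4.18 to 7.62 at 10 days, 6.26 to 13.2 at 20 days and 8.99 to 9.24 at 30 days. At each of these times 4 of the 4 tested markers were called higher. Whether a marker passed the filter through trained muscles alone was not examined for any cell type. Where one did, a difference was built in. The part of mast cells in the Il1rl1 differences was not tested. Of the T cell and innate lymphoid markers 4 of 7 were in the table, Gata3 was at 0 in most libraries, and Cd4, the only one tested, was called higher at 10, 20 and 30 days, with sums of 1.42 to 2.88 in contralateral and 2.16 to 7.34 in trained muscles. The 3 neutrophil markers in the table summed to 0 to 2.52 and 0 to 1.63 in the contralateral and the trained muscles, S100a8 was at 0 in most libraries, and none could be tested. Of 5 endothelial markers 0, 3, 3 and 2 were called higher and 1 lower at 2 days, of 5 smooth muscle and pericyte markers 2, 3, 2 and 2 were called higher and 1 lower at 2 days, and of 3 tested satellite cell markers 1, 1, 0 and 0 were called higher. Of all tested genes, 15.4%, 15.6%, 11.7% and 11.1% were called higher at 2, 10, 20 and 30 days, and 13.4% lower at 2 days. Nothing is drawn from setting the counts of these short lists beside those shares.

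The contralateral muscles were also compared among themselves over the 4 time points, a comparison that the choice of the members did not use. Of the 7 members that passed a filter on these 12 muscles, 0 were called by a limma F test at an adjusted p under 0.05, where 0.0663% of 10554 genes were. At an unadjusted p under 0.05 there were 2, where 10.9% of all genes were past it. Il6r had contralateral means of 4.46, 4.51, 2.62 and 2.56 at 2, 10, 20 and 30 days (limma F test, unadjusted p = 0.018, adjusted p = 0.382). Socs3 had means of 2.06, 0.592, 0.994 and 0.372 (limma F test, unadjusted p = 0.0267, adjusted p = 0.398). Neither passed the adjustment over all genes. Stat3, by comparison, had means of 14.2, 14.02, 14.4 and 12.8 (adjusted p = 0.812).

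Across all 24 muscles the patterns most like those of 4 members were sought among 10169 genes with a mean value of at least 1. These are descriptions, since the muscles share the split into trained and contralateral. Stat3 was most like Tln1, a talin that ties integrins to actin (Pearson's r = 0.931), Arpc1b, a subunit of the actin-branching Arp2/3 complex (r = 0.931), and the heat shock gene Hspa1b (r = 0.931). Socs3 was most like the growth regulator Myc (r = 0.834), Phldb1 (r = 0.832) and the lipid droplet gene Plin2 (r = 0.829). Il1rl1 was most like Prc1, a gene of dividing cells (r = 0.943), the integrin subunit Itgb1 (r = 0.934) and Cd99l2 (r = 0.933). Osmr was less close to any gene, with Twf1, an actin-binding protein (r = 0.818), Reep3 (r = 0.799) and the interferon-induced Ifitm1 (r = 0.789) at the top.

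The surrounding pathway was followed in 89 further genes, of which 81 were in the table and 68 passed the filter. At 2, 10, 20 and 30 days, 21, 21, 20 and 18 of the 68 were called higher and 5, 4, 5 and 5 lower. These are 30.9%, 30.9%, 29.4% and 26.5% higher, beside 15.4%, 15.6%, 11.7% and 11.1% of all genes, and 7.35%, 5.88%, 7.35% and 7.35% lower, beside 13.4%, 13.3%, 9.57% and 9.4%. In 5 of the 68 (Bcl3, Ccl2, Icam1, Il1r2 and Ptpn6) every contralateral value was below 1, so that they passed the filter through trained muscles alone. Without them 16, 18, 16 and 16 of 63 were called higher and the lower counts were the same. The median difference of the list was 0.21, 0.14, 0.13 and 0.11, beside -0.01, -0.03, -0.03 and -0.01 over all genes tested. The list was drawn up with earlier results of these muscles known and is a description.

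Genes known as targets of Stat3 or interleukin-6 held most of the higher calls. Of 25 tested, 14, 14, 14 and 11 were called higher, beside 15.4%, 15.6%, 11.7% and 11.1% of all genes, and 0, 0, 1 and 1 lower. These genes too were listed with earlier results of these muscles known. Nothing is drawn from setting their counts beside the shares for all genes. The medians of the 25 were 0.59, 0.88, 0.68 and 0.55. Bcl3, Ccl2 and Icam1 are among those that entered through trained muscles alone, and without them 11, 11, 11 and 10 of 22 were called higher, with medians of 0.58, 0.88, 0.56 and 0.56. Fos, an AP-1 subunit and immediate early gene, rose from 10.4 ± 6.42 in the contralateral muscles to 202 ± 68.5 at 2 days (n = 3), a difference of 4.30 (SE 0.38), and was still 2.49 higher at 30 days. Myc, the growth regulator whose pattern was closest to Socs3, rose from 1.40 ± 0.74 to 17.1 ± 4.81 at 2 days and was 2.93, 2.66, 2.19 and 1.45 higher (SE 0.24) over the 4 times. Timp1, an inhibitor of matrix proteases, was 2.59 higher at 2 days, and the AP-1 gene Junb was 2.78 higher at 20 days and 1.59 at 30 days. Ccl2, the chemokine that draws monocytes, stood at 0.369 ± 0.297 in the contralateral muscles and 10.7 ± 6.48 at 10 days. Its trained muscles lay above all contralateral ones at every time. The same held for 8.55%, 9.99%, 8.22% and 7.47% of all tested genes at 2, 10, 20 and 30 days. Cebpd, which codes for an acute phase transcription factor, fell by 1.35 at 20 days and by 1.67 at 30 days (SE 0.39), but its contralateral values ran from 5.74 to 39.0 and neither call was kept against the contralateral muscles of the same time point, at -1.16 and -1.29. The 20 days call was also lost without trained replicate 1 (-1.06) or replicate 3 (-1.34).

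**Figure D5:**
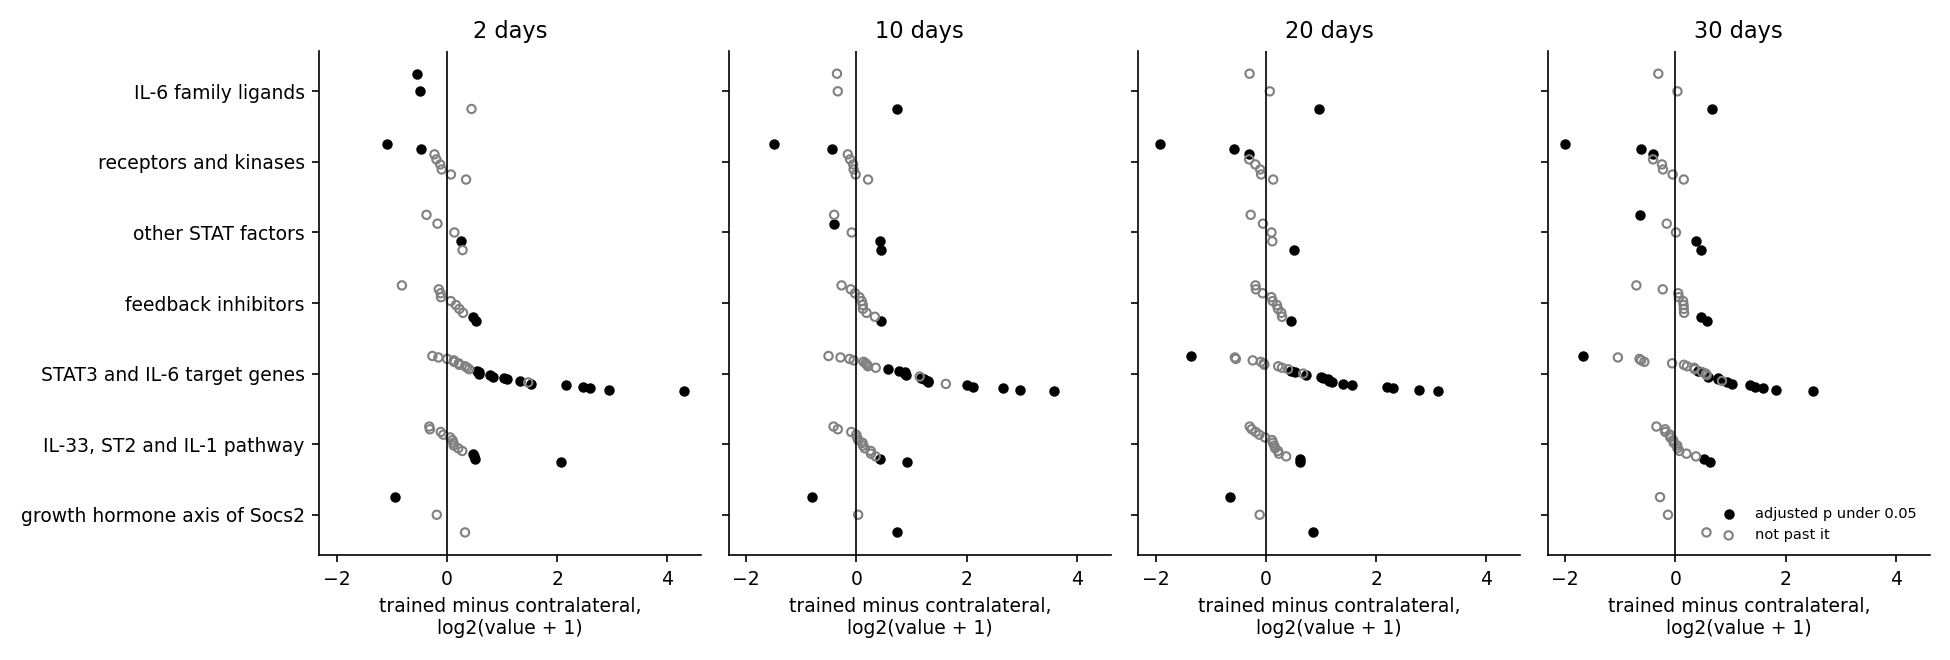
Difference between trained and contralateral muscles, log2(scaled value + 1), of the 68 further pathway genes that passed the filter, grouped by role, at 2, 10, 20 and 30 days. Filled points passed an adjusted p of 0.05. Most filled points to the right are targets of Stat3 or interleukin-6, 14 of 25 at 2, 10 and 20 days and 11 at 30 days. The lists were drawn up with earlier results of these muscles known, so this is a description.

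Among the other ligands and receptors the calls were mixed. Among the ligand genes, Cntf (ciliary neurotrophic factor) and Ctf1 (cardiotrophin 1) fell at 2 days. Ctf1 went from 4.41 ± 0.79 to 2.77 ± 1.02 at 2 days (difference -0.55, SE 0.15), and the difference was -0.32 and not called without trained 2 days replicate 2. Of 8 further receptors and kinases, 0 were called higher at any time and 2, 2, 3 and 3 lower. Over all genes, 15.4%, 15.6%, 11.7% and 11.1% were called higher and 13.4%, 13.3%, 9.57% and 9.4% lower. Cntfr, the receptor chain for ciliary neurotrophic factor, was lower at all 4 times, from 9.93 ± 4.33 in the contralateral muscles to 3.94 ± 1.44, 3.02 ± 2.38, 1.80 ± 0.82 and 1.66 ± 0.93. Its 2 days difference of -1.09 (SE 0.31) was -0.97 and -0.98 without trained replicate 2 or 3 and was not called in either case. Ptpn11, the phosphatase SHP2 that docks on gp130, was lower at all 4 times, from 57.5 ± 3.54 in the contralateral muscles to 41.5 ± 6.97, 42.1 ± 2.51, 38.2 ± 4.13 and 37.4 ± 6.37. The differences were -0.47, -0.44, -0.58 and -0.62 (SE 0.10), and the trained muscle was below its own contralateral one in all 12 animals. On deposited values the calls at 2 and 10 days were lost (-0.36 and -0.32), and that at 10 days was also lost with the animal as a block or against its own time point (-0.36 in both). The Janus kinase genes Jak1, Jak2 and Tyk2 were called at no time point.

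Among other STAT genes, Stat2 was called higher at 2 days and Stat6 at 10, 20 and 30 days. Stat5a was called lower at 10 days and Stat5b, a mediator of growth hormone signals, at 30 days. Stat5b went from 22.7 ± 6.22 to 13.8 ± 1.08 at 30 days, a difference of -0.64 (SE 0.18) that was not called without trained replicate 2 (-0.63) or 3 (-0.59) or against its own time point (-0.60). Of 10 further feedback inhibitors tested, 2, 1, 1 and 2 were called higher and 0 lower, or 10% to 20%, which is close to the 11.1% to 15.6% of all genes and no result about the inhibitors. Socs5 was called at 2 and 10 days, Ptpn6 at 2, 20 and 30 days and Socs6 at 30 days. Cish, another inhibitor of growth hormone signalling, varied from muscle to muscle (16.3 ± 13.8 in contralateral muscles) and was called at no time.

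Calls were also counted in a pair of neighbouring axes. In the growth hormone axis on which Socs2 acts, Ghr, the growth hormone receptor, fell from 60.9 ± 9.78 in the contralateral muscles to 31.8 ± 9.95, 34.0 ± 2.90 and 38.1 ± 3.00 at 2, 10 and 20 days (differences -0.94, -0.81 and -0.65, SE 0.15), and was 49.5 ± 4.23 at 30 days, where it was not called. Igf1 was called higher at 10 and 20 days, and Igfbp3 at no time. Around Il1rl1, 14 interleukin-33 and interleukin-1 pathway genes were tested, of which 4, 2, 2 and 2 were called higher and 0 lower. The 4 at 2 days include Il1r2, which entered through trained muscles alone, and without it 3, 2, 2 and 2 of 13 were called higher, beside the 15.4%, 15.6%, 11.7% and 11.1% of all genes. Il33, the ligand of ST2, was at 3.09 ± 0.82 in the contralateral muscles and at 2.85, 3.11, 3.77 and 4.22 in the trained muscles at 2, 10, 20 and 30 days, and was not called. Il1rap, the chain that pairs with ST2, was at 0.560 ± 0.251 and was not called either. Il1r1 and Irak3 were called higher at all 4 times and Myd88 at 2 days. The decoy receptor Il1r2, singled out after its values were seen, stood at 1.02 to 8.54 in the trained muscles at 2 days, above 0 to 0.236 in the contralateral muscles. It stood at no more than 0.245 in any trained muscle at the later times. All trained muscles lay above all contralateral ones at 2 days for 8.55% of all tested genes.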

How the data were processed

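Per the labels and the study's methods, RNA of 24 tibialis anterior muscles was sequenced from a stranded poly-A library, aligned with STAR to Rnor_6.0 (rn6) and quantified to Ensembl transcripts in Partek Flow. The methods name a median-of-ratios normalization, but every deposited column summed to 634431 and the values scale with 1 over transcript length, as TPM values (transcript abundance per length) do. The unit of the table the authors deposited was therefore taken as TPM. A table with the authors' own fold changes and p-values was not used. No column lacked a sample, and no pair of columns among 276 was identical.

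TPM values were divided by median-of-ratios factors (0.778 to 1.14, over 16230 transcripts above 0 in all samples), summed per gene and kept where 3 or more muscles reached 1, leaving 11234 genes. The log2(value + 1) values were fitted with limma 3.58.1 in R 4.3.3 in 5 groups (12 contralateral muscles, 3 trained at each time point), with Benjamini-Hochberg adjustment over all genes and a threshold of 0.05. A limma F test set the contralateral muscles of the 4 time points against each other. The pipeline was tested on simulated data. The limb pairs come from the same animals, and their deviations from the group means correlated at a median r of 0.179 (12 pairs), beside -0.00916 over 132 pairs of other animals. The share of all genes that went the same way in all 12 animals was not counted. Reads per muscle were recovered from the steps of the TPM values for the 10 members only. Whether the animals were independent of each other beyond their numbers is not stated, so p-values measure the spread between these muscles.

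The members, the pathway and marker lists and the alternatives were chosen with earlier results of these data known. The named genes are all 10 members, of the pathway list the 3 highest and 3 lowest differences past the threshold at each time, and for 4 members the 3 genes of highest r. Other pathway genes are named to spell out small counts or as a partner of a member, and were chosen after their values were seen. Lists, alternatives and intervals were computed with Python 3.11.15 (pandas 2.3.3, scipy 1.17.1). Il11, Il27, Ctf2, Il27ra, Stat4, Mcl1, Il1a and Prlr were not analysed here. Some genes of the pathway list are not reported here by name.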

Additional observations from a re-analysis of the deposited data

How the results depend on the processing

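Of 1440 member differences recomputed under 36 alternatives, 563 equalled the reported one, many by construction. A threshold, a filter or a left-out trained muscle of another time cannot move a difference. Of all 1440, 27 moved by more than 1 residual SD, and no called difference changed sign. With a mean value of at least 5 as the filter, only Stat3 of the called members was tested, so members called higher numbered 1 at each of the 4 times and 0 were called lower at 2 and 30 days. Members called higher at 30 days numbered 1 in place of 2 on deposited values, with time-matched controls, at a threshold of 0.01 and with the highest transcript per gene. Members called lower at 30 days numbered 0 in place of 1 with time-matched controls, with the animal as a fixed replicate block and at 0.01. The block also gave 1 in place of 0 at 20 days, and the animal as a random effect 1 in place of 0 at 10 days. Leaving out 1 muscle at a time, also muscles chosen after seeing the data, gave 3 to 4, 3 to 4, 3 and 1 to 2 members higher and 0 to 2, 0 to 1, 0 and 0 to 1 lower at 2, 10, 20 and 30 days.

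For the pathway list, the filter at a mean of 5 gave 6, 9, 8 and 9 genes higher in place of 21, 21, 20 and 18, and time-matched controls gave 13 at 20 and 11 at 30 days. Genes called lower numbered 2 at 10 days on deposited values, with time-matched controls and with the replicate block, 13 at 30 days on deposited values, and 3 at 2, 20 and 30 days at 0.01. Leaving out 1 muscle gave 14 to 23, 17 to 23, 17 to 22 and 14 to 20 higher and 3 to 6, 3 to 5, 4 to 5 and 3 to 7 lower. With a pseudocount of 0.1 the differences at 2, 10, 20 and 30 days were 1.41, 1.25, 0.85 and 1.22 for Il1rl1-201 and 3.87, 4.80, 2.56 and 1.33 for Il1rl1-202. In the contralateral comparison 0 members were called under every alternative run. Over all genes, 3243, 2386 and 2302 calls at 10, 20 and 30 days became 2007, 1584 and 1113 with time-matched controls, and the replicate block left 1371 at 30 days. The filter at 5 gave 2039 and 1518 at 10 and 20 days, and the threshold of 0.01 gave 1953, 2049, 1419 and 1285, with 3240 at 0.05 at 2 days. Leaving out trained 2 days replicate 2 left 1513 at 2 days, trained 10 days replicate 1 left 2137 at 10 days, and trained 30 days replicate 2 or 3 left 1468 or 1493. Apart from the calls named, the replicate block changed no member's call. The cause of these changes was not tested. A count model was not run, since the table holds no counts and reads were recovered only for the members.

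Depth limits Il6, Lif and the contralateral Il1rl1, at 0 to 6 reads each, and 3 muscles a group limit the rest.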
